A study of Mus musculus with 7 samples.

Results

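The genes described are the insulin-like growth factor (IGF) ligands Igf1 and Igf2, the receptors Igf1r and Igf2r, and the binding proteins Igfbp2, Igfbp3, Igfbp4, Igfbp5, Igfbp6 and Igfbp7. They were chosen by gene symbol after transcript identifiers had been mapped to mouse genes, and they are 10 of the 44818 features in the summed tables. All 10 were found, and all 10 passed the filter on low counts that left 16028 features, called genes below.

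RNA was sequenced from hindlimb tendon of C57BL/6 background mice in a study of heterotopic ossification (bone formed in soft tissue) after musculoskeletal injury and of the kinase TAK1. Tenotomy libraries (n = 2) came from the left leg of mice that had received a dorsal burn (a block at 60 °C on 30% of the body surface for 18 s) together with transection of the Achilles tendon, 3 weeks earlier. Contralateral libraries (n = 3) came from the unoperated right leg of burned and tenotomised mice at the same time, so this group carries the burn too. Uninjured libraries (n = 2) came from wild-type mice with neither burn nor tenotomy. The tissue lay between the gastrocnemius insertion and the calcaneus. The labels give no age, do not say whether animals were pooled, and do not say which contralateral and tenotomy libraries shared a mouse. P-values therefore measure the spread between these libraries, which may be partly technical.

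IGF1 and IGF2 are small secreted peptides that act through IGF1R, a receptor tyrosine kinase which signals to PI3K, AKT and mTOR. IGF2R binds IGF2 without signalling in this way and carries it to lysosomes. IGFBP2 to IGFBP6 bind the ligands tightly and hold, carry or release them, and proteases such as PAPP-A free the ligand again, whereas IGFBP7 binds IGFs weakly. In tendon, IGF1 is known for stimulating collagen synthesis and tenocyte proliferation.

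The stretch of Igf1 in which 2 of its C-terminal forms part is shown because Igf1 was among the genes that differed. A 52-base coding exon on chromosome 10 at chr10:87915298-87915349 (GRCm38, plus strand, GENCODE M21 transcripts) is kept in some transcripts and skipped in others. Capitals mark that exon, with the 30 coding bases before it and the 18 after it in lower case.

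Igf1 exon kept: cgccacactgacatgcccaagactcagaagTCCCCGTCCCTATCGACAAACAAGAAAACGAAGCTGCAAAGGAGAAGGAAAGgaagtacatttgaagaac
Igf1 exon skipped: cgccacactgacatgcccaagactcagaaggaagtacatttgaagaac

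The 250 bases before the start are shown for Igfbp4 and Igfbp7, the binding protein genes that differed along with Igf1. Sequences are from RefSeq (GRCm38.p6). All 10 genes had a RefSeq start, and for 5 of them (Igf2, Igfbp2, Igfbp4, Igfbp5 and Igfbp7) it lay within 25 bases of the start of the transcript with the most counts. The Igfbp4 stretch is chr11:99040994-99041243 on the plus strand, and the Igfbp7 stretch is chr5:77408046-77408295 on the minus strand. Capitals mark matches on either strand to the motifs searched, which were the TATA box (TATAAA), the GC box (GGGCGG), the CCAAT box and the AP-1 motif (TGANTCA).

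Igfbp4: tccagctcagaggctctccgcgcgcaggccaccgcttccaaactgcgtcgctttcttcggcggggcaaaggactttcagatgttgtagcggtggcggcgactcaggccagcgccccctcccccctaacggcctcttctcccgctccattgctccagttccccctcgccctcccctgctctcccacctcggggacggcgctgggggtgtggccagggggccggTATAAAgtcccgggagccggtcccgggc
Igfbp7: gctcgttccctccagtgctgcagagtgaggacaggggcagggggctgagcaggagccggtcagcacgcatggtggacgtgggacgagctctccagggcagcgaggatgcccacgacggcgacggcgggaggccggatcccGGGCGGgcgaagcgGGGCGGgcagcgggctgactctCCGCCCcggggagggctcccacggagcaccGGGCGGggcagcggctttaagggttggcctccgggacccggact

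Igfbp4 had 1 match to TATAAA, which 12.4% of all 32851 such RefSeq windows hold, and a GC content of 69.2%. Igfbp7 had 4 matches to GGGCGG, which 32.7% of windows hold, and a GC content of 74.0%. The median GC content of all windows was 52.4%. Igfbp5 had none of the 4 motifs in its window, although CCAAT occurs in 33.8% of all windows and TGANTCA in 6.75%. A GC content above the median of all windows was also found for genes that did not pass the edgeR test of tenotomy against contralateral, among them Igf1r (77.6%), Igfbp3 (73.2%), Igf2r (69.2%) and Igfbp2 (67.2%). The 4 motifs can overlap one another, and a match describes letters only.

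Libraries held 25927171 to 36725106 estimated counts, of which the 5 features with the largest counts took 76.4% to 81.4%, and 4934057 to 8375626 counts lay outside those 5. Tendon markers were detected in every library, including Scx, Mkx and Tnmd. The 10 tendon markers summed to 994 to 1429 CPM (counts relative to the library size after TMM scaling) in contralateral, 4975 to 4990 in tenotomy and 4596 and 4133 in uninjured replicates 1 and 2. Most of that sum came from Col1a1 and Col1a2 in every library. Col1a1 stood at 478, 466 and 373 CPM in contralateral, 2565 and 2583 in tenotomy, and 2357 and 2214 in uninjured. Skeletal muscle markers (15 genes) summed to 9507 to 12655 CPM in contralateral, 1073 to 1075 in tenotomy and 1327 and 9467 in the uninjured libraries. The uninjured libraries stood apart from each other. Over log2 CPM of all tested genes, uninjured replicate 1 lay 59.6 and 61.1 from the tenotomy libraries and 114 from uninjured replicate 2, which lay 64.5 to 67.4 from the contralateral libraries. Each comparison that uses the uninjured group is therefore given with and without each of them.

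Over log2 CPM of the 10 IGF genes alone, uninjured replicate 1 again lay near the tenotomy libraries. Its distances to them were 0.52 and 0.83, less than the 0.99 between those 2 libraries. Its distance to uninjured replicate 2 was 2.92. Uninjured replicate 2 lay 2.59 to 4.02 from the contralateral libraries, which lay 1.30 to 1.65 from each other, so over all 10 genes it was farther from them than they were from each other. Igfbp2, a gene of few counts, enters these distances, with 0 counts in uninjured replicate 2 and 9, 5 and 18 in contralateral. Its part in them was not separated.

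**Figure D1:**
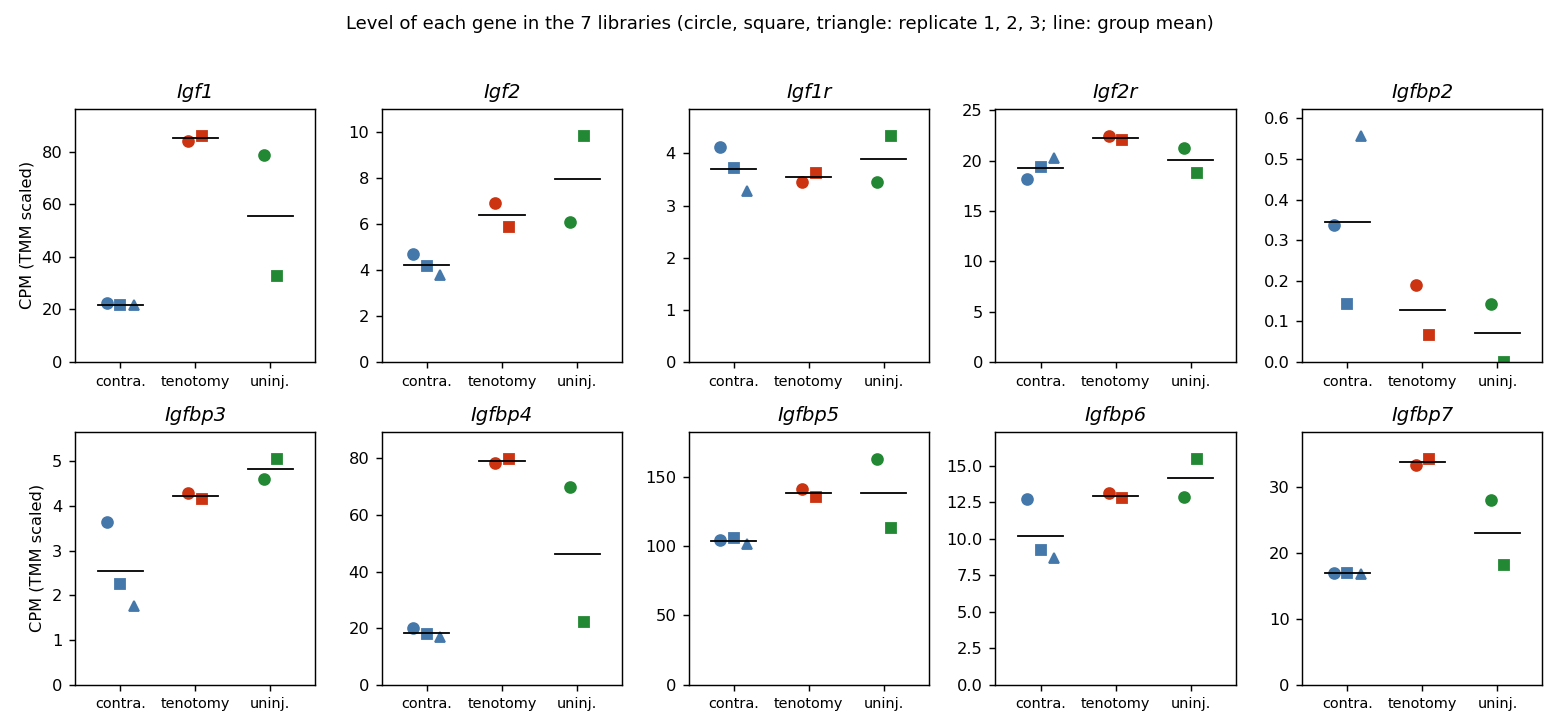
CPM of the 10 IGF genes (vertical axes, each from 0) in the 7 libraries, grouped along the horizontal axis as contralateral, tenotomy and uninjured, with a line at each group's mean. Igf1, Igfbp4 and Igfbp7 show 1 uninjured library near the tenotomy level and the other near the contralateral level, whereas both uninjured libraries of Igfbp3 lie above the tenotomy libraries.

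At the tenotomy site, Igf1, Igfbp4 and Igfbp7 were higher than in the contralateral tendon, by 3.89-fold, 4.32-fold and 2.00-fold. These 3 of the 10 genes passed the test (edgeR's quasi-likelihood test, 1 fit of all 7 libraries, Benjamini-Hochberg adjusted p under 0.05 over 16028 genes) and none was lower. Among all genes tested 29.0% passed, 13.6% higher and 15.4% lower. The median log2 fold change of the 10 genes was 0.51, beside -0.0012 over all genes tested, and 8 of the 10 values were above 0. Whether a lower level reflects fewer cells of a type or less RNA per cell cannot be told apart in these bulk libraries.

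Among the ligands, Igf1 differed most. Its level was 22.4, 21.5 and 21.6 CPM in the contralateral libraries, 84.0 and 85.9 in tenotomy, and 78.7 and 32.6 in the uninjured libraries. Both tenotomy libraries were the highest of the 7, the contralateral libraries were the lowest and nearly equal, and the groups of burned mice did not overlap. The log2 fold change of tenotomy over contralateral was 1.96 (SE 0.33, edgeR adjusted p = 0.0167). The gene (ENSMUSG00000020053.18) spans 87858265 to 87937042 on the plus strand of chromosome 10. It had 598 to 3089 counts per library, so counting error was small beside the difference. Its antisense neighbour Igf1os overlaps it and had 16 to 31 counts.

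Igf2, the ligand that is imprinted and abundant in fetal tissue, was much less expressed. Its level was 4.68, 4.18 and 3.77 CPM in contralateral, 6.88 and 5.87 in tenotomy, and 6.07 and 9.81 in the uninjured libraries. The contralateral libraries were the 3 lowest and did not overlap either other group, and the highest value was in uninjured replicate 2, the library in which Igf1 was low. The log2 fold change of tenotomy over contralateral was 0.60 (SE 0.22, edgeR adjusted p = 0.0780), which missed the threshold with 122 to 285 counts per library. The gene (ENSMUSG00000048583.16) spans 142650766 to 142666816 on the minus strand of chromosome 7. In a fit of the tenotomy and contralateral libraries alone the value was also 0.60 and the edgeR adjusted p 0.00264.

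Set against each other per length, in deposited TPM summed per gene, the ligands kept different proportions. The Igf1 to Igf2 TPM ratio was 2.50, 3.16 and 2.90 in contralateral, 6.89 and 9.54 in tenotomy, and 8.63 and 2.15 in the uninjured libraries. Over protein-coding transcripts alone it was 3.54, 3.58 and 5.81, then 7.10 and 10.3, then 8.85 and 2.65. Both ways, the ratio exceeded 1 in every library, and it was higher in tenotomy and uninjured replicate 1 than in the other 4.

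The receptors showed no called difference. Igf1r, the signalling receptor, stood at 4.12, 3.73 and 3.28 CPM in contralateral, 3.45 and 3.63 in tenotomy, and 3.45 and 4.34 in uninjured. The groups overlapped, and the log2 fold change of tenotomy over contralateral was -0.06 (SE 0.17, edgeR adjusted p = 0.805), with 96 to 131 counts per library. The sign of that value depended on the scaling and on 1 library, since it was 0.047 with upper quartile scaling and 0.011 without contralateral replicate 1.

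Igf2r, the clearance receptor, stood at 18.1, 19.4 and 20.3 CPM in contralateral, 22.5 and 22.0 in tenotomy, and 21.3 and 18.8 in uninjured. Tenotomy lay just above contralateral without overlap, the log2 difference being 0.21 (SE 0.15, edgeR adjusted p = 0.333). Igf2r overlaps the antisense gene Airn, which had 83.9 to 128 estimated counts beside 484 to 826 for Igf2r. No strand setting is given in the sources used here, so the split between the pair is uncertain. Per length and over protein-coding transcripts, Igf2r was 2.06 to 3.15 times the TPM of Igf1r across the 7 libraries. Summed over all transcripts the ratio was 6.92 to 10.9, since a non-coding Igf2r transcript of 245 bases with few counts takes most of the summed Igf2r TPM.

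Among the binding proteins, Igfbp4 had the largest log2 fold change of the 10 genes between tenotomy and contralateral. IGFBP4 is known as an inhibitor of IGF action that PAPP-A cleaves. Its gene stood at 20.1, 18.0 and 16.7 CPM in contralateral, 78.3 and 79.8 in tenotomy, and 69.9 and 22.3 in uninjured. As for Igf1, tenotomy was highest, uninjured replicate 1 came next and the other 4 libraries lay far below. Its log2 fold change over contralateral was 2.11 (SE 0.41, edgeR adjusted p = 0.0167). The gene (ENSMUSG00000017493.12) spans 99041244 to 99054392 on the plus strand of chromosome 11.

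Igfbp7, which encodes a secreted protein of the extracellular matrix and vessel walls, differed less but with little spread. Its level was 16.9 CPM in each contralateral library, 33.3 and 34.2 in tenotomy, and 28.0 and 18.2 in uninjured. Tenotomy and contralateral did not overlap, and uninjured replicate 1 was nearer tenotomy. Between tenotomy and contralateral the log2 fold change was 1.00 (SE 0.20, edgeR adjusted p = 0.0167). The gene (ENSMUSG00000036256.13) spans 77349240 to 77408041 on the minus strand of chromosome 5, and its end overlaps Polr2b on the other strand.

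Igfbp5, a binding protein that attaches to extracellular matrix, had the most counts of the 10 genes, 2781 to 5184 per library. Its level was 104.2, 105.6 and 101.3 CPM in contralateral, 141.0 and 135.2 in tenotomy, and 162.8 and 113.2 in uninjured. Tenotomy exceeded contralateral without overlap, but uninjured replicate 1 exceeded both. The log2 fold change of tenotomy over contralateral was 0.41 (SE 0.21, edgeR adjusted p = 0.173). The edgeR adjusted p was 0.00336 in the fit of those 2 groups alone.

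Igfbp3 encodes the main carrier of IGFs in the circulation. It stood at 3.64, 2.25 and 1.76 CPM in contralateral, 4.30 and 4.17 in tenotomy, and 4.60 and 5.06 in uninjured. The contralateral libraries were lowest and spread most, and both uninjured libraries lay above both tenotomy libraries. The log2 fold change of tenotomy over contralateral was 0.74 (SE 0.27, edgeR adjusted p = 0.0762), and the edgeR adjusted p was 0.0181 in the fit of those 2 groups alone.

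Igfbp6 encodes a binding protein that prefers IGF2. It stood at 12.7, 9.22 and 8.66 CPM in contralateral, 13.2 and 12.8 in tenotomy, and 12.9 and 15.5 in uninjured. Contralateral replicate 1 all but reached the tenotomy level, the other contralateral libraries lay lower, and uninjured replicate 2 was highest. For tenotomy over contralateral the log2 fold change was 0.35 (SE 0.20, edgeR adjusted p = 0.228).

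Igfbp2, which neighbours Igfbp5 on chromosome 1 at a distance of 5457 bases, was near the limit of detection. It had 9, 5 and 18 counts in contralateral, 7 and 2 in tenotomy, and 4 and 0 in uninjured, where a count of 0 allows up to 3 counts. The groups overlapped, and at this depth no difference was detectable (log2 fold change of tenotomy over contralateral -1.34, SE 0.89, edgeR adjusted p = 0.287). Igfbp1 of the same family had no count in any library.

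**Figure D2:**
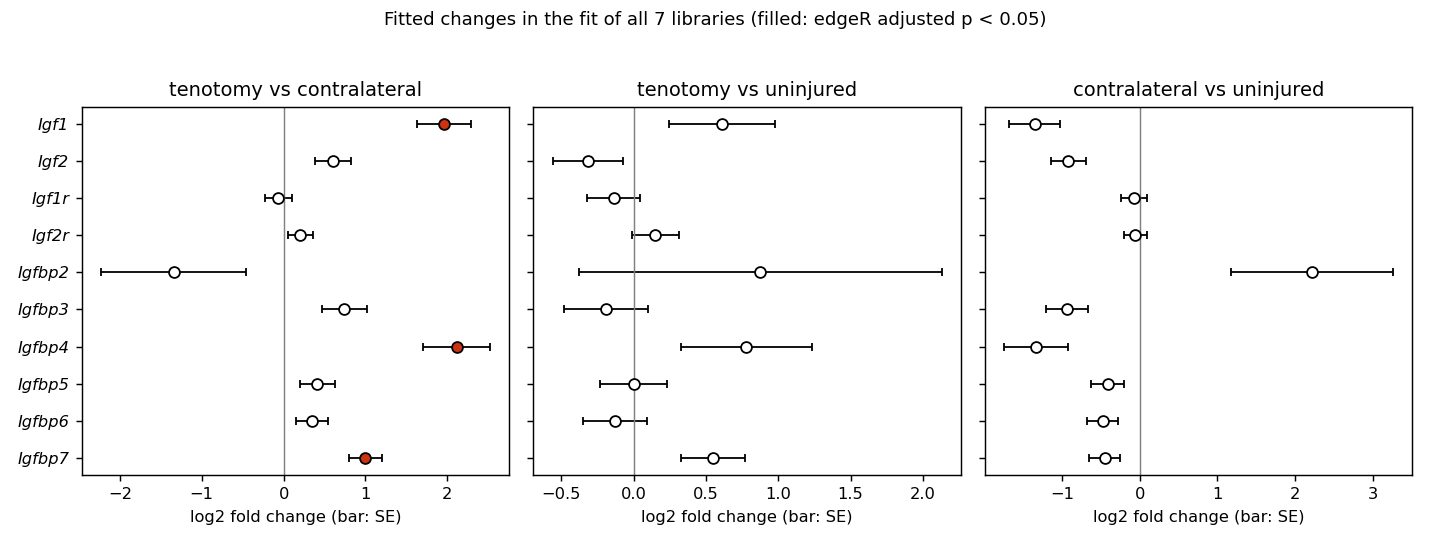
Fitted log2 fold changes of the 10 IGF genes (points) with their SE (bars) in the 3 comparisons, filled where the edgeR adjusted p was under 0.05. Filled points appear only for Igf1, Igfbp4 and Igfbp7 in tenotomy against contralateral, at 1.96, 2.11 and 1.00.

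The tenotomy and contralateral libraries did not overlap for 8 of the 10 genes, all with tenotomy higher (Igf1, Igf2, Igf2r and Igfbp3 to Igfbp7). Over all genes tested, 31.9% did not overlap with tenotomy higher and 31.8% with tenotomy lower. Both uninjured libraries enter the estimate of the spread in the fit of all 7. With the tenotomy and contralateral libraries alone, 6 of the 10 genes passed, all higher, where 22.1% of 16014 genes passed higher. The added genes were Igf2, Igfbp3 and Igfbp5. Without uninjured replicate 1, 6 passed higher beside 21.0% of genes, and without uninjured replicate 2, 6 beside 21.2%. Leaving out any 1 contralateral or tenotomy library from the fit of all groups left no gene past the threshold, in the IGF set or elsewhere, and the edgeR adjusted p of Igf1 was then 0.0501 to 0.124. Unadjusted p-values under 0.05 were then found for 4538 to 6148 genes. In the fit of those 2 groups alone, Igf1, Igfbp4 and Igfbp7 passed with any 1 of the 5 libraries left out.

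Several marker lists moved with the same libraries as Igf1, Igfbp4 and Igfbp7. The 12 macrophage and leukocyte markers summed to 31.7 to 39.9 CPM in contralateral, 142 to 145 in tenotomy, and 144 and 40.3 in uninjured replicates 1 and 2. Of these, 11 passed higher in tenotomy than in contralateral, beside 13.6% of all genes, and all 12 values were above 0. The 7 proliferation markers summed to 3.25 to 3.52, 13.7 to 15.1, and 12.1 and 2.99 CPM in the same order. Of these, 6 passed higher, and all 7 values were above 0. All 15 skeletal muscle markers passed lower, beside 15.4% of all genes. Of the 10 chondrocyte markers 9 were tested and all 9 were higher, with sums of 7.70 to 12.4 CPM in contralateral, 276 to 279 in tenotomy, and 89.0 and 23.1 in uninjured, and with Matn1 at 0 in part of the libraries. Of the 10 tendon markers 5 passed, all higher, and all 10 values were above 0. The part of these tissue differences in the IGF results was not tested.

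Endothelial markers (8 genes) summed to 60.3 to 71.4 CPM in contralateral, 53.9 to 64.4 in tenotomy, and 71.5 and 69.7 in uninjured. Of these, 1 passed lower in tenotomy than in contralateral, beside 15.4% of all genes, and 5 of the 8 values were below 0. Adipocyte markers (8 genes) summed to 183 to 247, 91.2, and 89.1 and 246 CPM. All 8 had values below 0, and 4 passed lower. Schwann cell markers (6 genes) summed to 145 to 163, 101 to 102, and 70.4 and 239 CPM. Of these, 2 passed higher, beside 13.6% of all genes, and 4 of the 6 values were below 0. The highest Schwann cell sum was in uninjured replicate 2, the library with the highest Igf2, Igfbp3 and Igfbp6. Erythroid markers (5 genes) summed to 44.3 to 50.1, 65.2 to 69.7, and 63.8 and 64.7 CPM. All 5 had values above 0, and 2 passed higher.

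**Figure D3:**
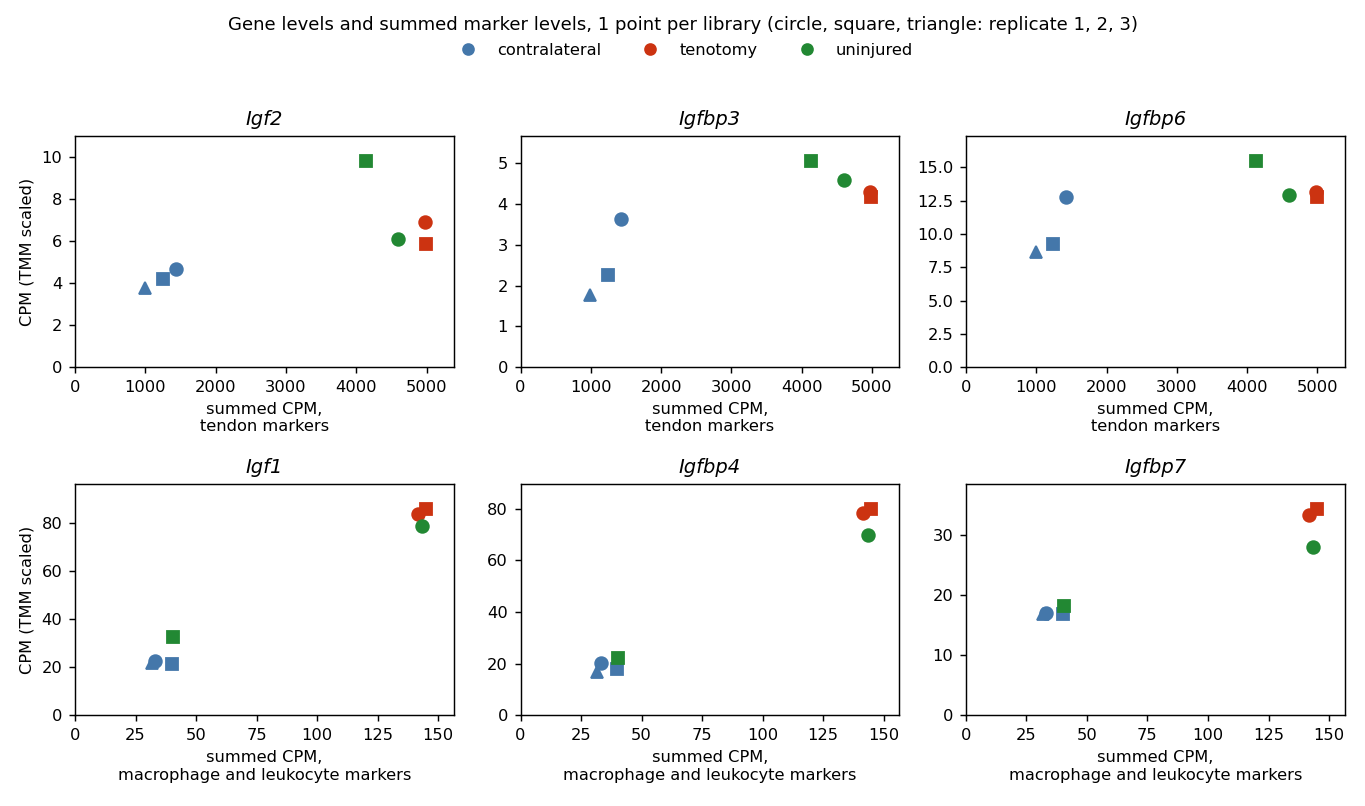
CPM of Igf2, Igfbp3 and Igfbp6 against the summed CPM of 10 tendon markers (top), and of Igf1, Igfbp4 and Igfbp7 against the summed CPM of 12 macrophage and leukocyte markers (bottom), 1 point per library. The tendon sum was mostly Col1a1 and Col1a2. In the bottom panels 3 libraries (both tenotomy and uninjured replicate 1) lie together at 142 to 145 CPM of markers and the other 4 at 31.7 to 40.3, so the 7 points form separate clusters.

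Tenotomy was next compared with tendon of mice without burn or tenotomy. No IGF gene passed, and no gene of the 16028 did (0% called). At an unadjusted p under 0.05, Igfbp7 alone of the 10 was found, beside 10.9% of all genes (1741). DESeq2 called 145 genes (0.905%) and none of the 10. Log2 fold changes of tenotomy over uninjured were 0.61 for Igf1, 0.78 for Igfbp4 and 0.55 for Igfbp7, with edgeR adjusted p of 0.454 to 0.999 over the 10 genes. They were -0.32 for Igf2, -0.19 for Igfbp3 and -0.13 for Igfbp6. Igf2r stood at 0.15, Igf1r at -0.14, Igfbp5 at 0.00064 and Igfbp2 at 0.88. The median of the 10 was 0.076, beside -0.015 over all genes.

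Both tenotomy libraries lay above both uninjured libraries for 4 of the 10 genes (Igf1, Igf2r, Igfbp4 and Igfbp7), and below them for Igfbp3. Over all genes these shares were 20.1% and 20.4%. The outcome rested on which uninjured library was used. Without uninjured replicate 1, 4 of the 10 passed where 25.1% of 17018 genes did. Igf1 (1.39, edgeR adjusted p = 1.44e-05), Igfbp4 (1.83, 5.00e-06) and Igfbp7 (0.90, 0.000274) were then higher in tenotomy. In that fit Igf2 was lower (-0.61). Uninjured replicate 1, at 6.07 CPM of Igf2, lay between the tenotomy libraries (6.88 and 5.87), and the sign of Igf2 turned over left-out libraries. Without uninjured replicate 2, none of the 10 passed, and 14 of 16877 genes (0.0830%) did. With 1 uninjured library left, that library is assumed to vary like the other groups.

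The contralateral tendon was then compared with the tendon of uninjured mice, which asks what the injury elsewhere in the animal went along with. No IGF gene passed and no gene of the 16028 did (0% called). At an unadjusted p under 0.05, 5 of the 10 were found (Igf1, Igf2, Igfbp3, Igfbp4 and Igfbp6), beside 19.2% of all genes (3084). DESeq2 called 223 genes (1.39%) and, of the 10, Igf1 (adjusted p = 0.0154). All 5 had negative values: -1.35 for Igf1, -0.92 for Igf2, -0.93 for Igfbp3, -1.33 for Igfbp4 and -0.48 for Igfbp6. Igfbp5 stood at -0.41, Igfbp7 at -0.45, Igf1r at -0.07, Igf2r at -0.05 and Igfbp2 at 2.22, and the edgeR adjusted p of the 10 ran from 0.215 to 0.859. The median was -0.46, beside -0.012 over all genes.

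All 3 contralateral libraries lay below both uninjured libraries for 7 of the 10 genes (Igf1, Igf2 and Igfbp3 to Igfbp7), where 16.6% of all genes did. None of the 10 lay above, where 18.9% of all genes did. Without uninjured replicate 1, Igf2 alone of the 10 passed (-1.22, edgeR adjusted p = 0.00565), and 0.311% of 17018 genes passed lower. Without uninjured replicate 2, 6 passed, all lower, beside 15.0% of 16877 genes. These were Igf1 (-1.85), Igfbp4 (-1.93), Igfbp7 (-0.73), Igfbp5 (-0.65), Igfbp3 (-0.88) and Igf2 (-0.53), with edgeR adjusted p of 3.38e-07 to 0.0333. Igf2 was lower in contralateral with either uninjured library left out, and with both kept its edgeR adjusted p was 0.215. Tendon markers summed lower and skeletal muscle markers higher in the contralateral libraries than in either uninjured library, and their part in these values was not tested. For muscle the gap to uninjured replicate 2 was slight, at 9467 CPM beside 9507 to 12655 in contralateral, whereas uninjured replicate 1 stood at 1327. That tendon sum was mostly Col1a1 and Col1a2. Scx, Thbs4, Comp and Dcn of uninjured replicate 2 lay within the contralateral range, and the other tendon markers lay above it. All 3 comparisons share libraries pairwise.

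The binding protein transcripts were also compared with each other per length. Igfbp7 had the highest TPM of the 10 genes in all 7 libraries, Igf1r was the ninth and Igfbp2 the lowest, both over all transcripts and over protein-coding ones. Over protein-coding transcripts Igfbp5 followed Igfbp7 in every library. Igfbp4 came next in tenotomy and uninjured replicate 1, and stood lower in the other 4. Its sum over all transcripts includes short non-coding ones, and with these it lay above Igfbp5 in both tenotomy libraries. As shares of the summed TPM of the 6 Igfbp genes, Igfbp4 was 12.2, 14.6 and 13.0% in contralateral, 25.3 and 24.3% in tenotomy, and 24.6 and 14.3% in uninjured. Over protein-coding transcripts the shares of Igfbp4 were 10.1, 9.83 and 8.29%, then 21.7 and 22.9%, then 20.4 and 9.12%. Over all transcripts again, as for the shares that follow, Igfbp5 was 29.2, 31.5 and 31.5%, then 23.0 and 22.6%, then 27.7 and 27.6%. The share of Igfbp6 was 24.1, 18.5 and 18.2%, then 14.2 and 14.0%, then 14.5 and 25.4%. Igfbp4 thus had its larger shares where Igfbp6 had its smaller ones, and the tenotomy libraries did not overlap the contralateral libraries for any of the 3. Igfbp7 kept 29.4 to 37.1% throughout and Igfbp3 1.47 to 3.28%. Shares of 1 sum move against each other by construction.

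**Figure D4:**
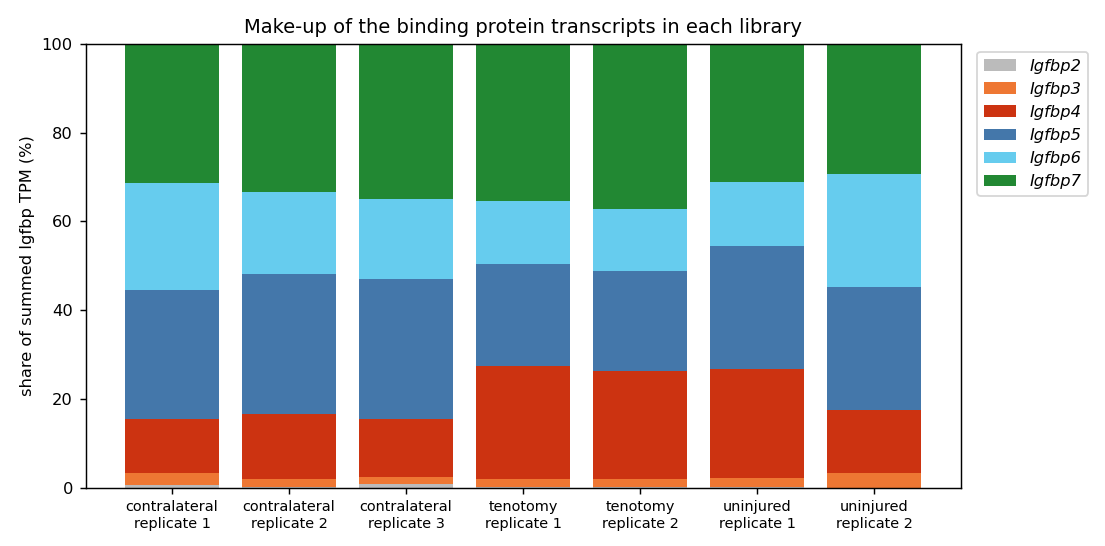
Share (%) of each Igfbp gene in the summed Igfbp TPM of each of the 7 libraries, stacked to 100. Igfbp4 takes 24.3 to 25.3% in both tenotomy libraries and in uninjured replicate 1, and 12.2 to 14.6% in the other 4.

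Summed over genes, binding protein TPM was 9.38, 11.2 and 8.84 times ligand TPM in contralateral, 6.09 and 5.58 times in tenotomy, and 6.09 and 7.33 times in uninjured. Over protein-coding transcripts the ratios were 9.99, 10.9 and 9.59, then 5.81 and 5.51, then 5.78 and 7.35. The contralateral libraries had the 3 highest ratios both ways. No test was made of these ratios.

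The forms of Igf1 were compared by the exon shown above. Transcripts that keep the 52-base exon held 4.02, 5.26 and 7.15% of Igf1 counts in contralateral, 5.16 and 7.42% in tenotomy, and 5.82 and 8.31% in uninjured. The 95% Wilson intervals, which cover counting error only, ran from 2.71 to 5.90% for contralateral replicate 1 and from 6.74 to 10.3% for uninjured replicate 2. The groups overlapped. The longest transcript, which skips the exon and spans 7052 bases, held 91.0 to 95.7% of counts. In TPM, which divides by length, the transcripts counted as keeping the exon held 20.0 to 32.3%, so the share depends on the unit. Counts were assigned to transcripts by the authors' quantification and are estimates, and the difference between the libraries of a group was as large as that between groups.

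Counts of Igf2 fell mainly on transcripts with 2 starts. The transcript that starts at base 142657496 of chromosome 7 (minus strand) held 81.2, 65.9 and 33.7% in contralateral, 85.2 and 90.3% in tenotomy, and 83.9 and 54.9% in uninjured. The one that starts at base 142659489 held 9.32, 32.7 and 52.7%, then 13.6 and 8.12%, then 14.1 and 31.6%. The contralateral libraries differed widely among themselves, and the tenotomy libraries had the highest shares of the first. These estimates rest on 122 to 285 counts per library.

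Genes whose profile over the 7 libraries was most like that of Igf1 were Mrc2 (a collagen receptor), Bmp1 (a procollagen protease) and Lsp1 (a leukocyte actin-binding protein). Their distances, over log2 CPM centred on each gene's mean, were 0.16, 0.18 and 0.28, beside a median of 2.60 over 2015 genes. Bmp1 stood at 6.07, 5.66 and 5.23 CPM in contralateral, 21.3 and 20.2 in tenotomy, and 19.5 and 7.95 in uninjured. For Igf2 the nearest were Htra3 at 0.38, Tent5a at 0.45 and Igfbp6 at 0.58, beside a median of 1.43. The nearest genes of Igf2 were thus farther off than those of Igf1, and 1 of the 3 was another of the 10 genes. Likeness over 7 libraries in 3 groups is a description.

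Other genes of the pathway were counted from lists of its known components, beside 13.6% of all genes that passed higher and 15.4% that passed lower. Of the 6 genes for IGFBP proteases and the stanniocalcins, which inhibit PAPP-A, 3 were higher in tenotomy than in contralateral, 1 was lower and 2 did not pass, with a median log2 fold change of 1.00. Adam12, a metalloprotease that cleaves IGFBP3 and IGFBP5, stood at 0.79, 0.80 and 0.56 CPM in contralateral, 15.3 and 16.2 in tenotomy, and 12.0 and 0.65 in uninjured. For Adam12 the log2 fold change of tenotomy over contralateral was 4.46 (SE 0.92, edgeR adjusted p = 0.0167). Pappa, which encodes PAPP-A, stood at 0.68, 0.57 and 0.84 CPM in contralateral, 3.56 and 4.17 in tenotomy, and 3.41 and 1.34 in uninjured.

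The log2 difference of Pappa was 2.47 (SE 0.37, edgeR adjusted p = 0.0167). The profiles of Adam12 and Pappa had the same high libraries as Igfbp4, the PAPP-A substrate. The macrophage, leukocyte and proliferation marker sums were also high in those libraries, and a link between protease and substrate was not tested. Pappa2, a related protease, was lower, at 2.14, 1.51 and 1.05 CPM in contralateral, 0.71 and 0.60 in tenotomy, and 0.93 and 1.03 in uninjured. Its log2 fold change was -1.24 (SE 0.33, edgeR adjusted p = 0.0290), and the edgeR adjusted p was 0.0783 with length-scaled TPM. Htra1 was the third gene of the list that was higher, with a log2 fold change of 1.51.

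Of the 7 other insulin and IGF genes, 2 had enough counts to be tested, and Ins1, Ins2 and Igfbp1 had none in any library. Insr, the insulin receptor, which can pair with IGF1R, stood at 21.1, 19.9 and 21.3 CPM in contralateral, 9.25 and 9.07 in tenotomy, and 11.9 and 17.5 in uninjured. Insr was thus lower in tenotomy, with a log2 fold change at -1.18 (SE 0.20, edgeR adjusted p = 0.0167), in the same comparison in which Igf1r had a value of -0.06. Igfals, which encodes the acid-labile subunit of the circulating complex, had a value of -1.06 (edgeR adjusted p = 0.165).

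Of 11 adaptors and phosphatases at the receptor, 10 were tested, with a median of -0.22. Of these, 3 passed higher and 3 passed lower, beside 13.6% and 15.4% of all genes. Grb10, an imprinted inhibitor of the insulin and IGF1 receptors, stood at 9.74, 8.82 and 9.62 CPM in contralateral, 27.9 and 27.7 in tenotomy, and 24.4 and 12.6 in uninjured. It was higher by 1.56 (SE 0.26, edgeR adjusted p = 0.0167), and Shc1, an adaptor to the Ras pathway, by 0.76 (edgeR adjusted p = 0.0172). Irs2, a docking protein of both receptors, stood at 5.10, 5.04 and 3.77 CPM in contralateral, 1.96 and 2.23 in tenotomy, and 1.73 and 3.92 in uninjured. Its log2 fold change was -1.15 (edgeR adjusted p = 0.0368), and that of the phosphatase gene Ptpn11 was -0.92 (edgeR adjusted p = 0.0167). With length-scaled TPM the edgeR adjusted p of Irs2 was 0.0547.

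Of 19 genes of PI3K, AKT and mTOR signalling, 8 were lower, 1 was higher and 10 did not pass, with a median of -0.46. The gene that was higher, Akt1, stood at 6.60, 6.63 and 6.49 CPM in contralateral, 9.65 and 10.3 in tenotomy, and 9.09 and 8.40 in uninjured (log2 fold change 0.60, edgeR adjusted p = 0.0175). Among those that were lower, Tsc1, which restrains mTOR, had a value of -1.11, and Mtor itself -0.91, both with an edgeR adjusted p of 0.0167. The list holds both activators and inhibitors of the pathway. With DESeq2 the count was 5 lower, beside 12.9% of all genes, and 1 higher. In the edgeR fit of the tenotomy and contralateral libraries alone it was 12 lower and 2 higher, beside 24.1% and 22.1% of all genes. Of the 4 FoxO genes, the transcription factors that AKT restrains, Foxo4 was lower (-1.48, edgeR adjusted p = 0.0219) and 3 did not pass, with a list median of -0.87. In the fit of the 2 groups alone 2 of the 4 passed lower, beside 24.1% of all genes.

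Of 6 genes of the growth hormone axis, which drives Igf1 in liver, Socs2 was higher (0.79, edgeR adjusted p = 0.0205) and Stat5b lower (-1.06, edgeR adjusted p = 0.0293). The median was -0.67. Ghr, the growth hormone receptor, had a value of -0.91 and did not pass (edgeR adjusted p = 0.0561). In the fit of those 2 groups alone 4 of the 6 passed lower and 1 passed higher, beside 24.1% and 22.1% of all genes. All 15 skeletal muscle markers were lower in tenotomy in the same comparison, and the part of muscle tissue in the counts of these lists was not tested.

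Of 5 genes that comprise the IGF2 mRNA-binding proteins and the imprinted neighbours H19 and Airn, none passed, and the median was -0.011. H19, which shares enhancers with Igf2 and is expressed from the other parental allele, stood at 52.4, 60.6 and 53.7 CPM in contralateral, 25.1 and 23.1 in tenotomy, and 20.4 and 119 in uninjured. H19 and Igf2 were both highest in uninjured replicate 2, whereas in the contralateral libraries H19 lay above, and Igf2 below, the tenotomy libraries. The log2 fold change of H19 was -1.21 (SE 0.61, edgeR adjusted p = 0.173), and in the fit of the tenotomy and contralateral libraries alone the edgeR adjusted p was 1.36e-06. None of the genes in these pathway lists passed in the comparisons with the uninjured group in edgeR's fit of all 7 libraries.

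**Figure D5:**
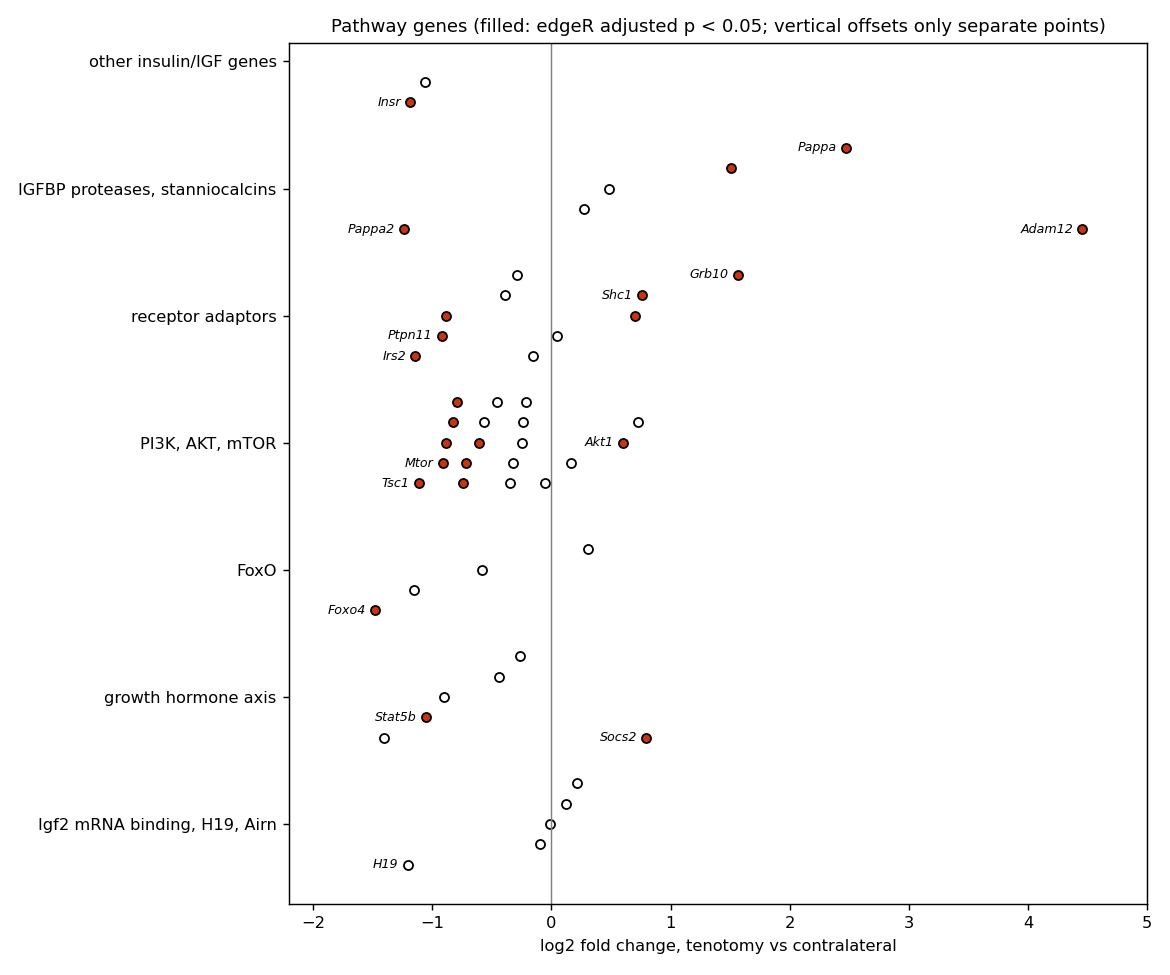
Log2 fold change of tenotomy over contralateral (horizontal axis) for each tested gene of the 7 pathway lists (vertical axis, with small offsets that only separate points), filled where the edgeR adjusted p was under 0.05. Adam12 and Pappa lie farthest to the right, at 4.46 and 2.47, and 8 filled points of the PI3K, AKT and mTOR list lie left of 0.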

How the data were processed

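RNA from 7 tendon libraries was measured by sequencing (TruSeq RNA kit), per the labels' protocols. Per the submitters' processing notes, FastQC 0.11.4 and kallisto were used, and the build GRCh38 is listed, although the transcript identifiers are of mouse. Estimated counts were deposited per transcript without normalization. TPM were deposited beside them, scaled by effective length and library, and were used to compare levels between genes. Identifiers were matched without version to GENCODE M21 (GRCm38): 101510 of 103639 matched, and 2129 were kept as single features. Summed counts were rounded, filtered with filterByExpr (minimum count 10) and scaled by TMM. They were tested with edgeR 4.0.16 in R 4.3.3 (quasi-likelihood, all 7 libraries, 3 group means, Benjamini-Hochberg over 16028 genes). CPM are counts over the TMM-scaled library size. The SE is the log2 fold change divided by the square root of F. Marker sums add CPM.

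Replicates were numbered in accession order. The 10 genes, the lists and the tests were chosen with earlier results of these data known. Named pathway genes were the 2 largest called changes in each direction per list, besides H19. Htra1, Igfals and Ghr were named after their values were seen. On simulated counts of 16028 genes with 200 changed by 2 on the log2 scale in tenotomy, edgeR called 185 of them and 11 others against contralateral.

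Alternatives were upper quartile and RLE scaling, DESeq2 1.42.0, voom of limma 3.58.1, no filter, the 2 groups compared alone, length-scaled TPM, the series of title numbers as a covariate, removal of the 5 features with the largest counts, and leaving out each library. The fit of 2 groups with each library left out, and TPM over protein-coding transcripts alone, were added after the data were seen.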

Additional observations from a re-analysis of the deposited data

How the results depend on the processing

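Tenotomy against contralateral called 4643 genes and 3 of the 10 IGF genes. With those 2 groups alone edgeR called 7385 and 6, without uninjured replicate 1 7308 and 6, without uninjured replicate 2 7336 and 6, and leaving out any 1 contralateral or tenotomy library called 0 and 0, so its range over left-out libraries was 0 to 7336 genes and 0 to 6 IGF genes. In the 2-group fit, leaving out contralateral replicate 1, 2 or 3 called 7, 6 and 7 IGF genes, tenotomy replicate 1 or 2 called 3 and 5, and genes ranged from 5245 to 7618. The title-number covariate called 5 IGF genes. Upper quartile scaling moved the median of all genes to 0.11 and called 4.

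Tenotomy against uninjured (0 genes) called 145 with DESeq2, 15 with no filter, 4 with the covariate, 4275 without uninjured replicate 1 (4 IGF genes) and 14 without uninjured replicate 2. Contralateral against uninjured (0 genes) called 223 with DESeq2 (1 IGF gene), 337 with no filter (1), 2466 with the covariate (2), 105 without uninjured replicate 1 (1) and 5393 without uninjured replicate 2 (6). Uninjured replicate 2 was alone in its title-number series, so the covariate absorbed that library. The covariate fit therefore set the uninjured level from uninjured replicate 1, shifted by the difference between the 2 tenotomy libraries, which lie in different series. In tenotomy against contralateral that fit rested on tenotomy replicate 1, the tenotomy library in the contralateral series. The cause of these shifts was not tested.

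Signs turned for values near 0, for Igfbp2, and for Igf2 in tenotomy against uninjured (-0.32, SE 0.24, in the fit of all 7 libraries), with cause not tested. In tenotomy against contralateral, Igf1r was 0.047 with upper quartile scaling, and -0.15 to 0.011 over left-out libraries (0.011 without contralateral replicate 1 in both fits). In tenotomy against uninjured, Igfbp5 was -0.0031 with those groups alone and Igf2r -0.081 with length-scaled TPM, and the covariate gave Igf1r 0.075, Igfbp2 -1.06 and Igfbp5 -0.27. Over left-out libraries Igf2 ran from -0.61 to 0.077, Igf1r from -0.29 to 0.039, Igfbp5 from -0.24 to 0.29, Igfbp6 from -0.25 to 0.010, and Igfbp2 from -0.10 to 5.12, the last fitted against a library at 0 counts. In contralateral against uninjured, the covariate gave Igf1r 0.17 and Igfbp2 -0.23, and over left-out libraries Igf1r ran from -0.23 to 0.10 and Igf2r from -0.14 to 0.037. Of the other values of the 10 genes, 438 kept direction and call, 40 newly passed and 15 no longer did.

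No paired analysis was possible because replicate numbers are accession order and the labels pair no libraries. Depth limits Igfbp2, at 18 counts or fewer, and the shares of Igf2 transcripts.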
